A study of Apostichopus japonicus with 9 samples.

Results

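The microRNA (miRNA) names described here are 8 let-7 names and 2 miR-84 names, chosen as the let-7 names without the 3p arm plus the miR-84 names among the 409 miRNA names that the authors listed for heat-stressed sea cucumbers. They are let-7a-5p, let-7b-5p, let-7e, let-7d, let-7j, let-7b, let-7g, let-7i-5p, miR-84-5p and miR-84d-5p. Small RNA was sequenced from intestines of Apostichopus japonicus, an edible sea cucumber, in animals of 100 to 120 g. The 9 libraries, each from 1 animal, form 3 groups of 3: heat stress at 26 °C for 6 h, heat stress at 26 °C for 48 h, and a control kept under normal conditions, for which no temperature or sampling time is stated. No genotype or strain is stated for any group, and the same control served both heat times.

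let-7 was found in the nematode Caenorhabditis elegans as a small RNA that times the passage of larval cells to adult fates, and it is among the most conserved miRNAs of bilaterian animals. The mature miRNA guides silencing complexes to messenger RNAs through its seed, a short stretch near its 5′ end that all family members share. Its known targets include the LIN-41/TRIM71 and RAS genes, and the RNA-binding protein LIN28 blocks its maturation in embryonic and stem cells. Vertebrate genomes hold many near-identical copies that are told apart by a letter, while nematodes hold sister genes with names of their own, of which miR-84 acts in larval development of C. elegans. A name in these tables says which known sequence of another species the authors matched, and 5p or 3p says which arm of the hairpin it came from.

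For each name and group the tables give 1 read count pooled over the 3 libraries and 1 mean level. The level has no stated unit and was read as RPM, the reads of a name per M reads of its library (M for mega). Library totals recovered from the values were 54.4 to 96.9 M reads at 6 h, 57.2 to 113 M reads at 48 h and 91.6 to 145 M reads in the control. Each library is called below by its total, since the values do not tie totals to animals. No value per library is given, so no SD and no test between animals could be had. The pooled count and the mean together limit what each library can hold, and those limits stand in for the spread. Among 364 group values with all reads in 1 library, the lowest level of that library was 20.01 RPM. A listed 0 was therefore read as under 20 RPM in each library. Levels are relative to all counted reads, so a name can shift when other RNAs change, and fewer cells of a type and less RNA per cell cannot be told apart.

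Of the 10 names, 8 were listed at 6 h and 7 at 48 h, and 5 were listed at both times. Both tables hold only names whose pooled counts, divided by pooled totals, differ from the control by over 2-fold. Being listed is thus no result about these names. At 6 h let-7e, let-7a-5p, let-7b-5p, let-7b and let-7i-5p were higher, and miR-84-5p, let-7d and let-7j were lower. The 5 higher and 3 lower names stand beside 56.7% higher and 43.3% lower among all 275 names listed at 6 h. At 48 h let-7e, let-7a-5p, let-7b-5p, miR-84d-5p and let-7g were higher, and miR-84-5p and let-7d were lower. The 5 higher and 2 lower names stand beside 61.7% higher and 38.3% lower among the 290 names listed at 48 h.

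**Figure D1:**
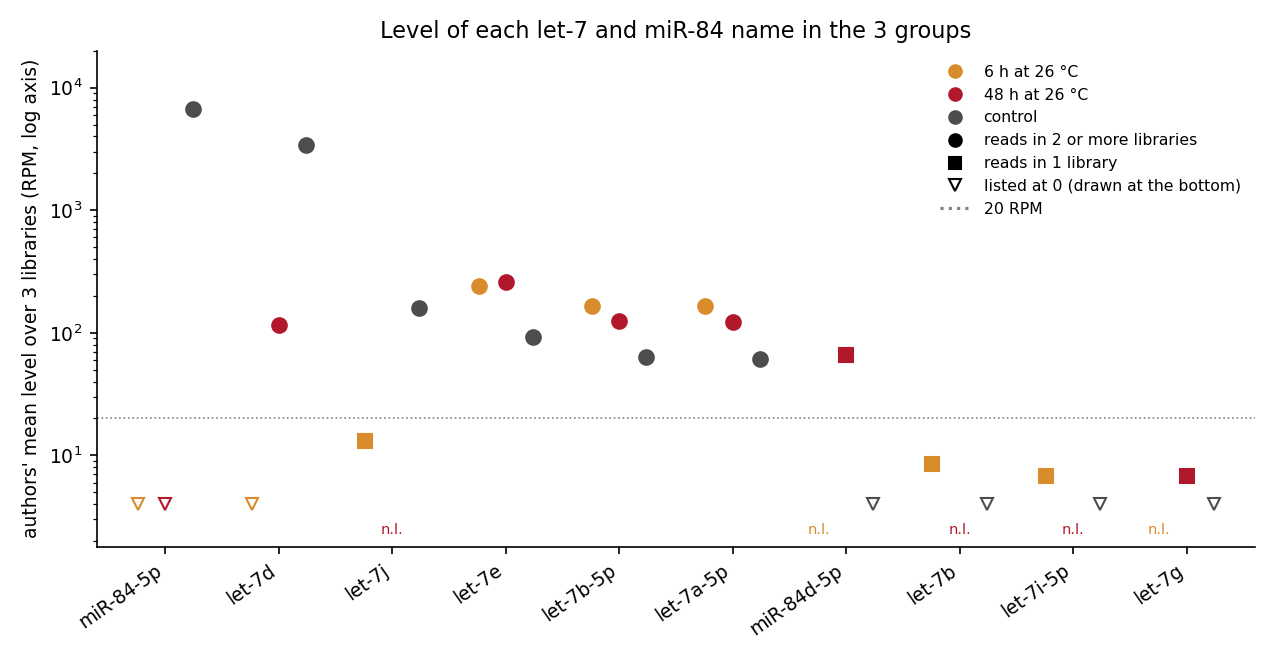
Mean level of each let-7 and miR-84 name, in RPM on a log axis, at 6 h, at 48 h and in the control. Circles have reads in 2 or more libraries, squares in 1, open triangles are listed at 0 and drawn at the bottom, and n.l. means not listed. miR-84-5p and let-7d stand far above the others in the control at 6756 and 3375 RPM, while let-7e, let-7b-5p and let-7a-5p are higher at both heat times.

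A stricter call counted any library that may have been under 20 RPM as 20 RPM in the lower group and as 0 in the higher group, and required a 2-fold difference to remain. At 6 h 6 of the 8 listed names passed it, against 29.5% of all listed names. They were let-7e, let-7a-5p and let-7b-5p on the higher side and miR-84-5p, let-7d and let-7j on the lower side. At 48 h 4 of the 7 passed it, let-7e and miR-84d-5p higher and miR-84-5p and let-7d lower, against 30.7% of all listed names. In the higher of the compared groups, all reads came from 1 library for 2 of 8 names at 6 h and 2 of 7 at 48 h. The same was true of 73.8% and 69.7% of all names listed at 6 h and 48 h.

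The listed let-7 and miR-84 names together took 0.0653% of pooled reads at 6 h and 0.0642% at 48 h, against 1.20% in the control. The summed mean level was 599.6 RPM at 6 h and 696 RPM at 48 h, against 10506 RPM in the control. Without the control library of 145 M reads the control sum would be 3904 to 5756 RPM. Heat sums without any 1 of their libraries are at most 899 RPM at 6 h and 1034 RPM at 48 h. The difference then rests on miR-84-5p. Without its highest control library it would average 3511 to 5147 RPM, against 88.4 to 132 RPM for let-7d. miR-84-5p and let-7d made up nearly all of the control sum. Without these 2 names the summed means were 599.6 RPM at 6 h and 581 RPM at 48 h, against 375 RPM in the control. A name that a table does not list adds nothing to these sums, and names within 2-fold of the control are not listed. The sums therefore describe the listed names and not the whole family.

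**Figure D2:**
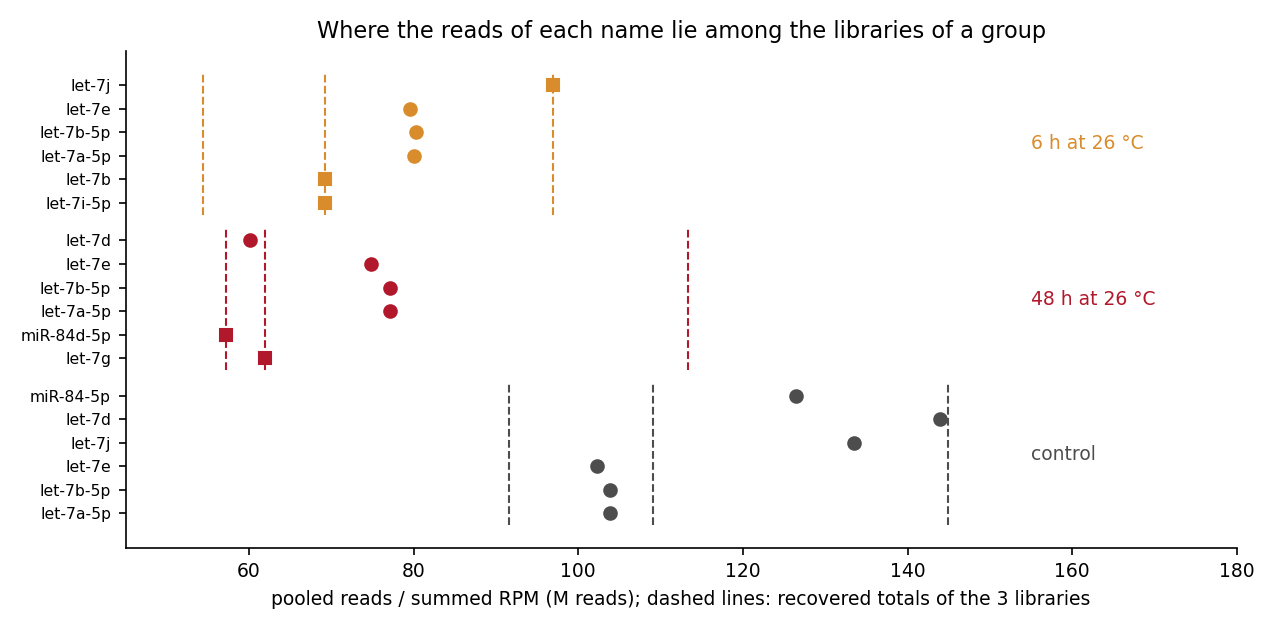
Pooled reads divided by summed RPM for each name with reads, in M reads, with 1 row per name and group. A value on a dashed line, the total of a library, means that all reads came from that library, as for let-7j, let-7b and let-7i-5p at 6 h and miR-84d-5p and let-7g at 48 h, while let-7d in the control lies next to the 145 M reads of the deepest library.

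miR-84-5p, whose nematode namesake is expressed in the larval skin and vulva and can repress the RAS gene let-60, was the most abundant of the names. It was listed at 0 at 6 h and at 0 at 48 h, against 2562193 pooled reads and a mean of 6756 RPM in the control, where it ranked 7 among 202 names with reads. The heat levels, under 20 RPM in each library, make it at least 338-fold lower on the mean at either time. In the control the library of 145 M reads had 9819 to 13246 RPM. The control libraries of 91.6 and 109 M reads could each have from 0 RPM up to 7022 and 10449 RPM.

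At least 2 control libraries must therefore have held 4201 RPM or more of miR-84-5p, far above any of the 6 heat libraries. The remaining control library could have any level from 0 to 4199 RPM, so whether all 3 control libraries stood above the heat libraries is not fixed by these values. Without its highest library the control would average 3511 to 5147 RPM. The coefficient of variation (CV) between control libraries lay between 62.1% and 98.1%. The authors' deposited table gave log2 ratios of -21.64 at 6 h and -21.72 at 48 h, which rest on 0.5 reads in place of 0, and q-values entered as 0. These q-values compare pooled reads and measure counting error only.

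The other nematode name, miR-84d-5p, was present in the reverse arrangement. It had 11318 reads and a mean of 66.0 RPM at 48 h, against 0 in the control, at least 3.30-fold higher on the mean. All of its reads came from the 48 h library of 57.2 M reads, at 198 RPM there. The other 2 libraries at 48 h and all 3 control libraries were below 20 RPM, so the groups overlap. It was not listed at 6 h.

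let-7d, in human a neighbour of let-7a and let-7f copies in 1 cluster, was listed at 0 at 6 h and had 20766 reads at 48 h, against 1457523 reads in the control. Its mean level was 115 RPM at 48 h, against 3375 RPM in the control, where it ranked 8 among 202 names. These means are 29.3-fold lower at 48 h and at least 169-fold lower at 6 h. In the control the library of 145 M reads held 9862 to 9949 RPM, which is 97.4% to 98.3% of the summed level. The other control libraries had at most 177 and 263 RPM and averaged 88.4 to 132 RPM.

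At 48 h the library of 113 M reads could have at most 17.9 RPM of let-7d, below the 20 RPM minimum. With that library at 0, the count and the mean fix the others at 131 RPM in the library of 57.2 M reads and 214 RPM in that of 61.9 M reads. Both levels lie within what the 2 shallower control libraries can have. Without the control library of 145 M reads, the 29.3-fold difference at 48 h would be at most 1.14-fold, and its direction could turn round. At 6 h all libraries were under 20 RPM, while at least 1 of the 2 shallower control libraries had 106 RPM or more. The 169-fold at 6 h would become 4.42- to 6.58-fold on the same 20 RPM limit without the deepest control library.

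let-7j, a name used in birds and fish, had 3820 reads and a mean of 13.1 RPM at 6 h, against 63274 reads and 158 RPM in the control. All of its 6 h reads came from the library of 96.9 M reads, at 39.4 RPM. The control library of 145 M reads had 324 to 373 RPM, and the others had at most 101 and 150 RPM. With the 2 libraries without listed reads at 6 h set to 20 RPM, let-7j was at least 5.96-fold lower. Without the highest control library, the others averaging 50.3 to 74.9 RPM, it would be 1.90- to 2.83-fold lower. let-7j was not listed at 48 h.

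**Figure D3:**
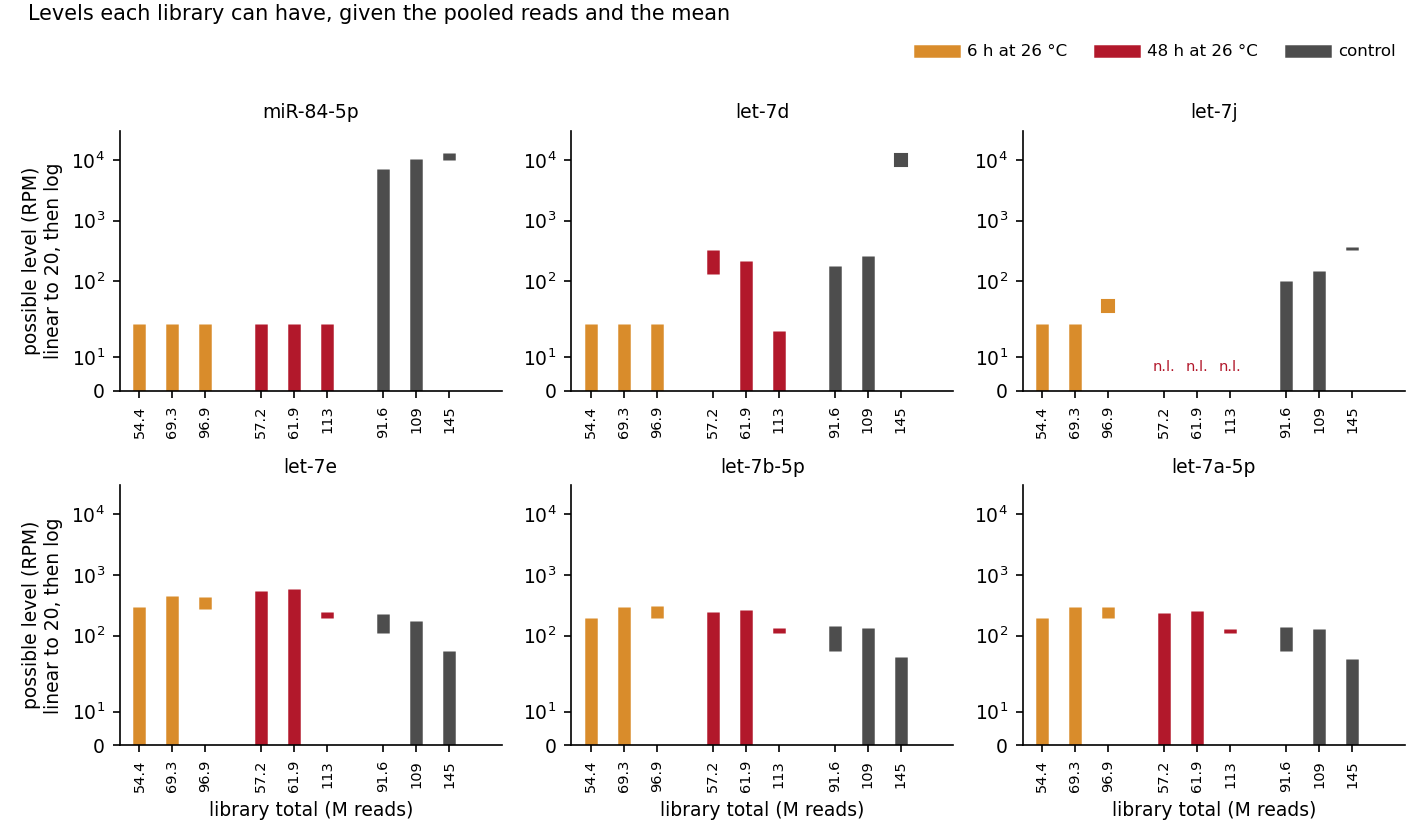
Range of levels, in RPM, that each library can have given the pooled reads and the mean, for 6 names, with libraries marked by their total. The axis is linear to 20 RPM and logarithmic above, squares mark ranges too narrow to draw, a listed 0 is drawn as 0 to 20 RPM, and n.l. means not listed. In the control the library of 145 M reads is the highest for let-7d and let-7j and is below that of 91.6 M reads for let-7e, let-7b-5p and let-7a-5p.

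let-7e, which in mammals lies beside miR-99b and miR-125a, was the most abundant of the names that were higher at both times. It had 57405 reads at 6 h and 58515 reads at 48 h, against 28560 reads in the control. The means were 240 RPM at 6 h and 261 RPM at 48 h, against 93.1 RPM in the control, 2.58-fold and 2.80-fold higher. The 2 heat means differed by 1.08-fold. At 6 h the library of 96.9 M reads had 269 to 428 RPM, above every control library, none of which could exceed 223 RPM. The 6 h libraries of 54.4 and 69.3 M reads had at most 294 and 452 RPM and could each be as low as 0 RPM.

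At 48 h the library of 113 M reads had 197 to 246 RPM of let-7e, and the others had at most 536 and 585 RPM. The highest library at 48 h had at least 280 RPM, again above every control library. Whether all heat libraries stood above all control libraries is not fixed at either time. The CV could lie from 42.2% to 94.6% at 6 h and from 12.6% to 114% at 48 h, against 71.3% to 125% in the control. Without the highest heat library let-7e would be 1.45- to 2.17-fold higher at 6 h and 1.06- to 2.70-fold higher at 48 h. Without the lowest control library, which had at most 42.1 RPM, the difference would be 1.72- to 2.03-fold at 6 h and 1.87- to 2.20-fold at 48 h.

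let-7a-5p, the copy most often taken to stand for the whole family in vertebrates, had 39526 reads at 6 h and 28252 at 48 h, against 18898 in the control. Its means were 165 RPM at 6 h and 122 RPM at 48 h, against 60.7 RPM in the control, 2.71-fold and 2.01-fold higher. let-7b-5p had means of 166 RPM at 6 h and 126 RPM at 48 h, against 62.9 RPM in the control, 2.64-fold and 1.997-fold higher. The counts of let-7a-5p and let-7b-5p differed by 1.13% at 6 h and 2.90% at 48 h, against 3.75% in the control. They were treated as sharing most of their reads, so they do not count as separate observations.

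The 6 h library of 96.9 M reads had at least 193 RPM of let-7a-5p, above the 140 RPM that no control library could exceed. At 48 h the library of 113 M reads had 109 to 130 RPM, within what the control libraries can have, and the others had at most 236 and 258 RPM. The CV of let-7a-5p lay from 45.6% to 92.5% at 6 h and from 1.53% to 106% at 48 h, against 62.7% to 119% in the control. Without the highest heat library let-7a-5p would average 96.6 to 136 RPM at 6 h and 54.3 to 122 RPM at 48 h, against 60.7 RPM in the control, so at 48 h its direction could turn round. For let-7b-5p the averages would be 97.5 to 137 RPM at 6 h and 55.8 to 125 RPM at 48 h, against 62.9 RPM in the control. The lowest control library had at most 31.5 RPM of let-7a-5p and 32.7 RPM of let-7b-5p. Without it let-7a-5p would be 1.81- to 2.19-fold higher at 6 h and 1.34- to 1.62-fold higher at 48 h. For let-7b-5p the values without the lowest control library would be 1.76- to 2.13-fold and 1.33- to 1.61-fold. At 48 h neither name passed the stricter call, with ratios of 1.81 for both. The 6 h means were 1.35-fold the 48 h mean for let-7a-5p and 1.32-fold for let-7b-5p.

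Within the control the libraries of 145 and 91.6 M reads stood in opposite order for different names, while the place of the library of 109 M reads is not fixed. The library of 145 M reads held at least 9819 RPM of miR-84-5p, 9862 RPM of let-7d and 324 RPM of let-7j, but at most 55.9 RPM of let-7e, 43.5 RPM of let-7b-5p and 41.8 RPM of let-7a-5p. The control library of 91.6 M reads held at least 109 RPM of let-7e, 56.3 RPM of let-7b-5p and 54.7 RPM of let-7a-5p. It could hold at most 177 RPM of let-7d and 101 RPM of let-7j. Of the 6 names with control reads, the 3 lower under heat were thus those that stood high in the deepest control library. The 3 higher under heat were those that stood low in it. Of these names, let-7j was listed at 6 h only, and let-7a-5p and let-7b-5p do not count as separate observations. miR-84-5p also had at least 4201 RPM in another control library, which neither let-7d nor let-7j could have.

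**Figure D4:**
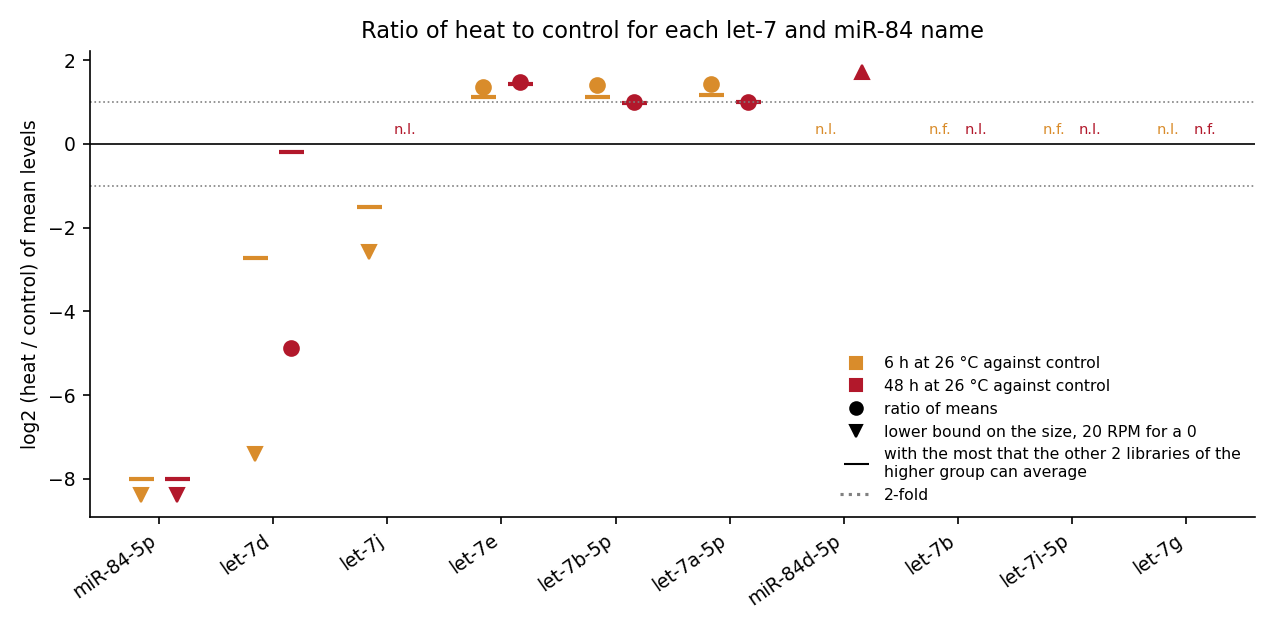
Log2 of the heat over control ratio of mean levels for each name at 6 h and 48 h, with dotted lines at 2-fold. Circles are ratios of means, triangles are lower bounds on the size with 20 RPM for a 0, and bars give the ratio with the most that the other 2 libraries of the higher group can average. n.l. means not listed and n.f. means that no fold is given; the bar of let-7d at 48 h lies close to 0, at -0.19.

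The remaining names were near the detection limit and in 1 library each. let-7b, written without an arm and listed apart from let-7b-5p, had 1771 reads and a mean of 8.52 RPM at 6 h, against 0 in the control. let-7i-5p, in human a regulator of the immune receptor TLR4, had 1417 reads and a mean of 6.82 RPM at 6 h, against 0 in the control. Both had all their reads in the 6 h library of 69.3 M reads, at 25.6 and 20.5 RPM. let-7g, a LIN28-controlled copy of mammals, had 1255 reads at 48 h, with an exact 95% Poisson interval of 1187 to 1326 that covers counting error only, against 0 in the control. All came from the 48 h library of 61.9 M reads, at 20.3 RPM. A group mean below the 20 RPM minimum allows no fold against a listed 0, so none is given for these names. Their q-values in the authors' deposited table were 1.8e-248, 3.1e-211 and 7.5e-190.

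The 3p arms, the strand of the hairpin that is mostly discarded in let-7 genes, gave 6 other let-7 names. At 6 h 1 was higher, let-7a-3-3p at 10.1 RPM, against 0 in the control, and 5 were lower. Among all names listed at 6 h, 56.7% were higher and 43.3% lower. None of the 6 passed the stricter call, against 29.5% of all listed names. let-7c-3p had 9.21 RPM at 6 h and 8.77 RPM at 48 h, from 1 library each, against 16.2 RPM in the control. At 6 h and in the control its counts were within 15% of those of let-7c-2-3p and let-7d-3p, which were not listed at 48 h, so these names may share reads. let-7-3p had 0 at 6 h, against 21.6 RPM in the control library of 145 M reads, the one that held most of let-7d. let-7b-3p was listed at 0 at both heat times, against 6.74 RPM in the control, all of it from the library of 91.6 M reads. No other nematode or vertebrate family name looked for, miR-48, miR-241, miR-98, miR-202 and miR-793 to miR-795, was listed, nor was lin-4.

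miR-100 and miR-125 share a primary transcript with let-7 in many animals, and miR-125 is the relative of the nematode timing miRNA lin-4. Of 8 such names, 1 was listed at 6 h, miR-125-3p, lower and not past the stricter call, beside 43.3% lower and 29.5% past that call among all names listed at 6 h. At 48 h 7 were listed, 6 higher and 1 lower, beside 61.7% higher and 38.3% lower among all names listed then. The stricter call was passed by 5 of the 7, against 30.7% of all listed names. miR-125c had counts within 15% of those of miR-125b, miR-125-5p and miR-125b-5p at 48 h and in the control, as had these among themselves, so the 4 names were treated as sharing reads. Joined into 1, they leave 4 names listed, 3 of them higher and 2 past the stricter call. The most abundant were miR-125b-5p at 2530 RPM at 48 h, against 1017 RPM in the control, and miR-125-5p at 2482 RPM at 48 h, against 1075 RPM in the control. miR-125b-5p was 2.49-fold and miR-125-5p 2.31-fold higher on the mean, beside 2.80-fold for let-7e. Without the highest 48 h library the ratio to the control would be 0.635 to 2.25 for miR-125b-5p and 0.584 to 2.09 for miR-125-5p, so the direction of either could turn round. With lower bounds taken at their bound and names without a fold left out, the median log2 ratio of means at 6 h was -0.60 for 6 let-7 and miR-84 names, beside 0.60 for 137 listed names. At 48 h it was 1.003 for 6 let-7 and miR-84 names, beside 1.26 for 6 miR-100 and miR-125 names and 0.86 for 143 listed names. The members behind these medians go both ways, from -8.40 for miR-84-5p to 1.44 for let-7a-5p at 6 h and from -8.40 for miR-84-5p to 1.72 for miR-84d-5p at 48 h. Names that share reads were counted separately in them.

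For each member, the most similar names were sought among the 156 names in both tables, leaving out the other let-7 and miR-84 names. Distance was taken between pairs of log2 (heat/control) values at 6 h and 48 h, with 20 RPM added to each mean. let-7a-5p, at 1.19 and 0.82, and let-7b-5p, at 1.17 and 0.81, lay closer to each other than to any name given here. Both comparisons share the control, so these are descriptions. For let-7a-5p the nearest were miR-4110-3p at a distance of 0.18 and miR-6048 at 0.27, and for let-7b-5p miR-4110-3p at 0.16 and miR-6936-3p at 0.28. miR-4110-3p had 82.5 RPM at 6 h and 74.1 RPM at 48 h, against 29.9 RPM in the control. miR-6048 had its control reads in 1 library. miR-6936-3p was listed at 0 in the control, and its 17.2 RPM at 6 h and 14.2 RPM at 48 h lie under the 20 RPM minimum. Its distance thus leans on the 20 RPM added. For let-7e the nearest were miR-2763-3p at 0.21 and miR-7155-5p at 0.33. miR-2763-3p had 63.8 RPM at 6 h and 86.8 RPM at 48 h, against 22.1 RPM in the control. miR-7155-5p was listed at 0 in the control. let-7d and miR-84-5p had no close neighbour: miR-4653-5p lay at 1.99 and 3.75 and miR-9120 at 3.11 and 5.79, both listed at 0 under heat with control reads in 1 library.

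Tissue makeup could be checked only in part, since names within 2-fold of the control are not in the tables. Of 7 miRNA numbers known from gut and other epithelia, 1 had reads at 6 h, miR-194-5p at 51.6 RPM. At 48 h 3 had reads, 1468 RPM in all and mostly miR-429, against 1 in the control, miR-8 at 69.8 RPM. The highest name differed in each group, so these counts were not read as a change of epithelium. Listed muscle names, of 2 of 3 numbers in either group, summed to 52680 RPM at 48 h, against 21304 RPM in the control, with miR-1a-3p the highest, miR-133-5p at 0 at 48 h and miR-206-3p at 0 in the control. Neural names, of 3 of 3 numbers, summed to 3673 RPM at 48 h, against 1407 RPM in the control, with miR-124-3p the highest. The secretory miR-375 and miR-7 names, of 2 of 2 numbers, summed to 3699 RPM at 48 h, against 4596 RPM in the control. At 6 h the secretory names listed, of 1 number, summed to 1551 RPM, and muscle and neural names, of 1 number each, to 23.95 and 49.4 RPM. No name of the 4 vertebrate blood cell numbers was listed. The muscle and neural sums were higher at 48 h than in the control, as were let-7e, let-7a-5p and let-7b-5p. At 6 h these let-7 names were higher too. Names within 2-fold are missing from these sums. A name within 2-fold at 1 heat time is missing from that heat sum but can still add to the control sum. The small muscle and neural sums at 6 h therefore cannot be read as a drop from the control. The part of muscle and neural tissue in the result was not tested.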

How the data were processed

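Per the labels' protocols, each animal's RNA was isolated with Trizol and small RNA of 18 to 30 nt was cut from a gel. Libraries of 140 to 160 bp then went on a HiSeq. Read trimming, alignment, naming and counting were not given in the sources used here, and miRNA sequences were not used here. The authors deposited a table for each heat time. Its columns, per the file headers, are a pooled read count per group, an expression value, a log2 ratio, and a p-value and q-value from an unnamed test. No unit is stated for the expression value. Judged from the numbers, the authors deposited the mean of 3 library RPM values, with 0.001 for a 0. The deposited log2 ratio is heat over control on pooled counts over pooled totals.

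From these, the totals of the libraries were taken as the 3 densest values of count over summed RPM. Their sums matched the scaling in the deposited log2 ratio within 0.0127% at 6 h and 0.0271% at 48 h. That scaling is a ratio of group totals, so the match checks neither the unit nor the split among libraries. For each name, all library levels of 0 or more that give both the count and the mean were found. The steps were tested on simulated data built from the recovered totals and the same rule for the mean. This checks the steps and not whether the authors used that rule. Moving a total by 0.03% moved these limits by at most 0.738% of the group mean. The design allowed for a test between libraries if the tables held values per library. They hold group values, so no test was run, and names were called where the deposited q-value was under 0.05. Names whose counts agreed within 15% in each group were treated as sharing reads. Named miRNAs are the 10 names, all other listed let-7 family names and the 2 most abundant miR-100 or miR-125 names. The 2 nearest patterns per name, from outside the 10 names, are also named. The names and lists were chosen with earlier results of these data known. Python 3.11.15, numpy 2.4.6, pandas 2.3.3 and matplotlib 3.10.9 were used.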

Additional observations from a re-analysis of the deposited data

How the results depend on the processing

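No paired analysis was possible because the tables hold no values per library, and for the same reason single libraries could be left out only as limits. The number of listed names passing at 48 h was 7 by the q-value and 4 by the stricter call. At 6 h these counts were 8 and 6. With names sharing reads joined at 5%, 15% or 30%, the q-value count was 6 or 7 at 6 h and 6 at 48 h. Joined at 15%, the stricter count was 5 at 6 h and 4 at 48 h. The summed level in the control was 3750 RPM without miR-84-5p. Without let-7a-5p, which shares reads with let-7b-5p, it was 435 RPM at 6 h and 574 RPM at 48 h, against 10445 RPM in the control. With 1 library left out, the summed level could lie from 350.1 to 899 RPM at 6 h and from 274 to 1034 RPM at 48 h, against 3904 to 15759 RPM in the control. Of 12 ratios with a fold, let-7b-5p at 48 h moved to the other side of 2-fold on the authors' pooled ratio (log2 1.14) and after taking the 5 most abundant names from the totals (log2 1.09). miR-84d-5p at 48 h fell under 2-fold with 40 RPM for a 0 (log2 0.72). Without the 1 library that held its reads none would remain, so it has no ratio with a library left out. let-7d at 48 h fell under it without the highest control library (log2 -0.19). Directions turned round only at the smallest ratio that the values allow without the highest library of the higher group. Limits on single ratios were taken without the highest library of the higher group or without the lowest library of the lower group. Over these limits, the log2 ratio at 48 h ranged from -0.16 to 1.002 for let-7a-5p and from -0.17 to 0.99 for let-7b-5p. For let-7d it ranged from -4.36 to 0.38. Leaving out the highest library of the lower group or the lowest of the higher group would give larger differences. Those limits are not in these ranges. At that smallest ratio without the highest library, let-7e at both times and let-7a-5p, let-7b-5p and let-7j at 6 h kept their direction and were under 2-fold. Without the lowest control library, the smallest possible ratios of let-7e, let-7a-5p and let-7b-5p were under 2-fold at both times. These last 2 limits, those on the sums, the joined stricter count and the shift of totals were chosen after seeing the data.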
